A study of Mus musculus with 6 samples.

Results

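The genes described here are 10 protein-coding genes that lie beside Grn, the gene for progranulin (PGRN), on mouse chromosome 11. They were chosen by name for their position and not by a threshold on a measured value, although earlier results of these data were known when they and the gene lists below were chosen. They are 10 of the 54532 genes in the deposited table, and 6 of the 10 were among the 14807 genes that could be tested. RNA was sequenced from bone marrow neutrophils of C57BL/6J mice, with 3 libraries labelled WT and 3 labelled as progranulin knock out (PGRN KO). Neutrophils of both genotypes were held at 2000000 cells per tube and exposed to Candida albicans, a yeast that causes bloodstream infection, for 6 h before RNA was taken. By the methods the cells were selected with magnetic beads against Ly-6G, a surface protein of mouse neutrophils, which enriches for them but leaves a minority of other cells. The labels give 1 yeast per neutrophil, the study's text gives another ratio, and no unexposed library was analysed here. By the study's methods the PGRN KO animals came from the Jackson Laboratory and the WT animals from a local university colony, so genotype and source of the mice cannot be told apart in any value below. The animals were matched for age and sex, but the ages of the neutrophil donors, the number of mice behind each library and the exons removed from the Grn allele were not found in the labels or methods used here. The labels do not say that the 3 libraries of a genotype came from separate animals, so the p-values measure the spread between these libraries, which may be technical.

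A knockout allele is made by changing DNA at the targeted gene, and the neighbouring genes stay on the same stretch of chromosome and are inherited together with it. The comparison made here asks how the RNA of those neighbours differed between cells with and without Grn expression. The 10 genes have varied roles. Atxn7l3 encodes an adaptor of the deubiquitinase module of SAGA, a co-activator complex that acts on chromatin. Ubtf encodes the upstream binding factor that helps RNA polymerase I transcribe ribosomal RNA genes. Tmub2 encodes a transmembrane protein with a ubiquitin-like domain, and Gpatch8 encodes a protein with a G-patch domain, found in RNA-processing proteins. Slc25a39 encodes a carrier of the mitochondrial inner membrane that is needed to import glutathione. Slc4a1 encodes band 3, the anion exchanger of red cells, and Itga2b encodes integrin alpha IIb, which forms the platelet fibrinogen receptor with the product of Itgb3. Rundc3a encodes a RUN domain protein found mainly in neurons, Asb16 encodes an ankyrin repeat protein with a SOCS box, and Fam171a2 encodes a membrane protein.

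On the GRCm38 build the 10 genes span 288 kb, with 7 of them before Grn and 3 after it in the direction of rising coordinates. Grn (ENSMUSG00000034708) lies on the plus strand at chr11:102430315-102437048. Fam171a2 (ENSMUSG00000034685, chr11:102436981-102447682, minus strand) meets it tail to tail and shares its last 68 bases. Itga2b (ENSMUSG00000034664, chr11:102453297-102470122, minus strand) is 16.2 kb from Grn and Gpatch8 (ENSMUSG00000034621, chr11:102475915-102556392, minus strand) is 38.9 kb from it. On the other side, Slc25a39 (ENSMUSG00000018677, chr11:102402985-102407946, minus strand) starts head to head with Grn across a gap of 22368 bases. Rundc3a (ENSMUSG00000006575, chr11:102393403-102402555, plus strand) ends 429 bases from the end of Slc25a39, and Slc4a1 (ENSMUSG00000006574, chr11:102348824-102366203, minus strand) lies 64.1 kb from Grn. Ubtf (ENSMUSG00000020923, chr11:102304560-102319742, minus strand) lies 110.6 kb away. Atxn7l3 (ENSMUSG00000059995, chr11:102289300-102296631, minus strand) and Tmub2 (ENSMUSG00000034757, chr11:102284931-102289237, plus strand) face each other tail to tail with 62 bases between them, 133.7 and 141.1 kb from Grn. Asb16 (ENSMUSG00000034768, chr11:102268743-102279462, plus strand) is the farthest, at 150.9 kb.

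**Figure D1:**
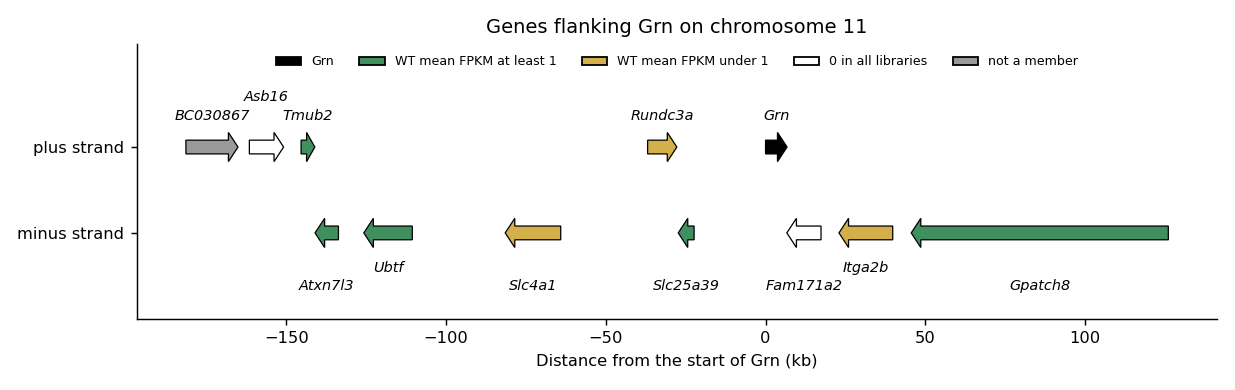
Map of Grn and its 10 flanking genes, with BC030867 beyond them, by distance from the start of Grn in kb and by strand. Arrows point in the direction of transcription and their colour gives the WT level; the 5 genes in green had a WT mean FPKM of at least 1, and Asb16 and Fam171a2 (white) were at 0 in all 6 libraries.

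The promoters of these genes differed widely in CpG content, and 4 are printed because they span the levels seen in the neutrophils. Each is the 250 bases before a RefSeq transcription start on GRCm38.p6, written 5′ to 3′ on the gene's own strand, with each CG in capitals. RefSeq starts need not match the gene bounds given above. By those bounds most of the Grn, Itga2b and Gpatch8 windows and all of the Slc25a39 window lie inside the gene, as do most of the Ubtf windows. The Atxn7l3 and Asb16 windows lie almost wholly before the gene. RefSeq promoters were matched for 6 of the 10 members (Asb16, Atxn7l3, Ubtf, Slc25a39, Itga2b and Gpatch8) and for Grn. The first belongs to the flanking gene with the highest level (chr11:102296630-102296879), the second to a gene with few fragments (chr11:102469884-102470133), the third to a gene with none (chr11:102268501-102268750) and the last to the targeted gene (chr11:102430257-102430506).
Atxn7l3: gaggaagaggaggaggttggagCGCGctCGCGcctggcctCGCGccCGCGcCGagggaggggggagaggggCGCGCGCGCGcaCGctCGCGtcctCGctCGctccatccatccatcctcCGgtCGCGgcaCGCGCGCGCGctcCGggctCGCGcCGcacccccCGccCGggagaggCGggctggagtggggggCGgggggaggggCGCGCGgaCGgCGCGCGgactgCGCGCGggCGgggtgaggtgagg
Itga2b: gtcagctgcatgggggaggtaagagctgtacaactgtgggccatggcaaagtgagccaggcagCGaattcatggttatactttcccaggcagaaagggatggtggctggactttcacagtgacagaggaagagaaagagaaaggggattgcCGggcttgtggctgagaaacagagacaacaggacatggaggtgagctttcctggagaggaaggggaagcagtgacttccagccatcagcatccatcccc
Asb16: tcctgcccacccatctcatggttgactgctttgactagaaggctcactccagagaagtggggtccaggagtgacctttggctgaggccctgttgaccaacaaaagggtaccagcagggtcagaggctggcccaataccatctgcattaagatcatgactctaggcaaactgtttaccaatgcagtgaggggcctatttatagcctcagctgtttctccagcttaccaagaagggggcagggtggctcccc
Grn: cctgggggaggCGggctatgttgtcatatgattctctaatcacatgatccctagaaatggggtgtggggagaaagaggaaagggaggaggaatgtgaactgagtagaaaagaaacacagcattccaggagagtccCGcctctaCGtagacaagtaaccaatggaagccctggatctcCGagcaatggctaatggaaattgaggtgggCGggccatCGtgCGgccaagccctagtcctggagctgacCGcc

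The Atxn7l3 window held 46 CG and was 81.2% G or C, and 99.7% of the 32851 RefSeq promoters of the same length held fewer CG. The window of Slc25a39 held 35 CG and that of Gpatch8 held 26, while the 6 starts listed for Ubtf held between 6 and 34. The Grn window held 8, near the median of 6 over all promoters, the Itga2b window held 2 and the Asb16 window held 0. Among the 5 members with a single matched start, the order by CG count (Asb16, Itga2b, Gpatch8, Slc25a39, Atxn7l3) was also the order by WT level, which is a description of 5 genes with no test. Grn, not a member but also with a single matched start, breaks this order. With 8 CG it had a WT mean of 165 FPKM, above all of the members. Searched on both strands and with overlaps allowed, GGAAG, the core of sites for ETS factors, occurred 4 times in the Itga2b window, and 3.39% of all promoters held it at least as often. AGATAA, a form of the GATA site, was in none of these windows and in 9.99% of all promoters.

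The levels are given as FPKM, which is fragments divided by gene length and by a library size, so they can be set side by side between genes. Multiplying back by length returned whole numbers of fragments within 0.05 for all values, with 17087344 to 18821091 fragments on genes per library. Grn itself was at 168.4, 161.3 and 166.1 FPKM in the WT libraries and at 0.242, 0.206 and 0.747 in PGRN KO, from 29163 and 79 fragments in all. The labels were thus matched by the targeted gene in all 6 libraries, with a log2 fold change of -6.91 (SE 0.14, adjusted p = 1.05e-05 from limma). The cells carried neutrophil RNA in both genotypes. S100a9, a calcium-binding protein gene that neutrophils express in bulk, was at 31333 ± 1130 FPKM in WT against 36371 ± 3050 in PGRN KO, and the summed level of 15 neutrophil genes was 72508 to 77080 and 74084 to 84068. All 15 were tested, and 3 rose (Mpo, Elane and Mmp9) and 2 fell (Csf3r and Mmp8). At an adjusted p under 0.05 in limma, 33.3% of the 15 were thus called, beside 17.9% of all genes tested. With each of the 6 libraries left out in turn, the calls on Mmp9, Csf3r and Mmp8 were kept in 3, 1 and 2 fits. Those on Mpo and Elane were kept in all 6.

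None of the 6 flanking genes that could be tested differed between genotypes past an adjusted p of 0.05 in limma on log2(FPKM + 1). Over all 14807 genes tested, the same rule called 17.9%, with 7.94% higher in PGRN KO and 9.95% lower. By unadjusted p, at 0.05, 3 of the 6 passed (Atxn7l3, Tmub2 and Itga2b) beside 32.1% of all genes. The 3 PGRN KO libraries did not overlap the 3 WT libraries for the same 3 genes, beside 37.7% of all genes, with Atxn7l3 and Tmub2 lower and Itga2b higher. An exact two-sided permutation test of 3 libraries against 3 cannot give a p below 0.10 for a single gene. The median log2 fold change was -0.10 over the 6 members and 0.0026 over all genes tested.

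Atxn7l3 and Tmub2, the pair that face each other tail to tail, had the highest levels among the 10 genes and the lowest PGRN KO values relative to WT. Atxn7l3 was at 35.1, 33.5 and 31.3 FPKM in the WT libraries and at 30.3, 27.7 and 26.1 in PGRN KO. All 3 PGRN KO values were below the lowest WT value, by a margin smaller than the range within WT. The means were 33.3 ± 1.92 and 28.1 ± 2.09 (SD, n = 3 each), or 15.7% less in PGRN KO. On the log2(FPKM + 1) scale the difference was -0.24 (SE 0.069, 95% interval -0.40 to -0.075), with an unadjusted p of 0.0111 and an adjusted p of 0.0572 from limma.

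Tmub2 was at 27.7, 26.3 and 28.6 FPKM in the WT libraries and at 25.3, 24.2 and 24.6 in PGRN KO. Again the genotypes did not overlap, and the gap between the nearest libraries was 26.3 against 25.3 FPKM. The means were 27.6 ± 1.15 and 24.7 ± 0.57 (SD, n = 3 each), a decrease of the mean by 10.4%. The log2 difference was -0.15 (SE 0.047, 95% interval -0.26 to -0.038) with an adjusted p of 0.0729 from limma. Over the 3 libraries of a genotype, Atxn7l3 gave 6965 (WT) and 6422 (PGRN KO) fragments, and Tmub2 gave 3564 and 3499.

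The size of both differences depended on how libraries were scaled. The authors' library sizes exceed the fragments on genes in PGRN KO (ratio of fragments to size 0.946 to 0.957) and fall below them in WT (1.03 to 1.04). With each library scaled to its plain total of fragments, Atxn7l3 was at -0.12 (adjusted p = 0.261, limma) and Tmub2 at -0.035 (adjusted p = 0.635), while the median of all genes moved to 0.067. Relative to that median they stood at -0.19 and -0.10, against -0.24 and -0.15 with the deposited scaling. Plain totals called 20.8% of all genes. When testing was limited to the 9249 genes whose mean FPKM reached 1, where limma called 31% of genes, the adjusted p of Atxn7l3 was 0.0381 at the same difference of -0.24. Without PGRN KO replicate 4 the difference was -0.29 with an adjusted p of 0.0386. The other 5 fits that left out 1 library did not call it, and over all 6 the difference lay between -0.29 and -0.19 and the adjusted p reached 0.161.

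**Figure D2:**
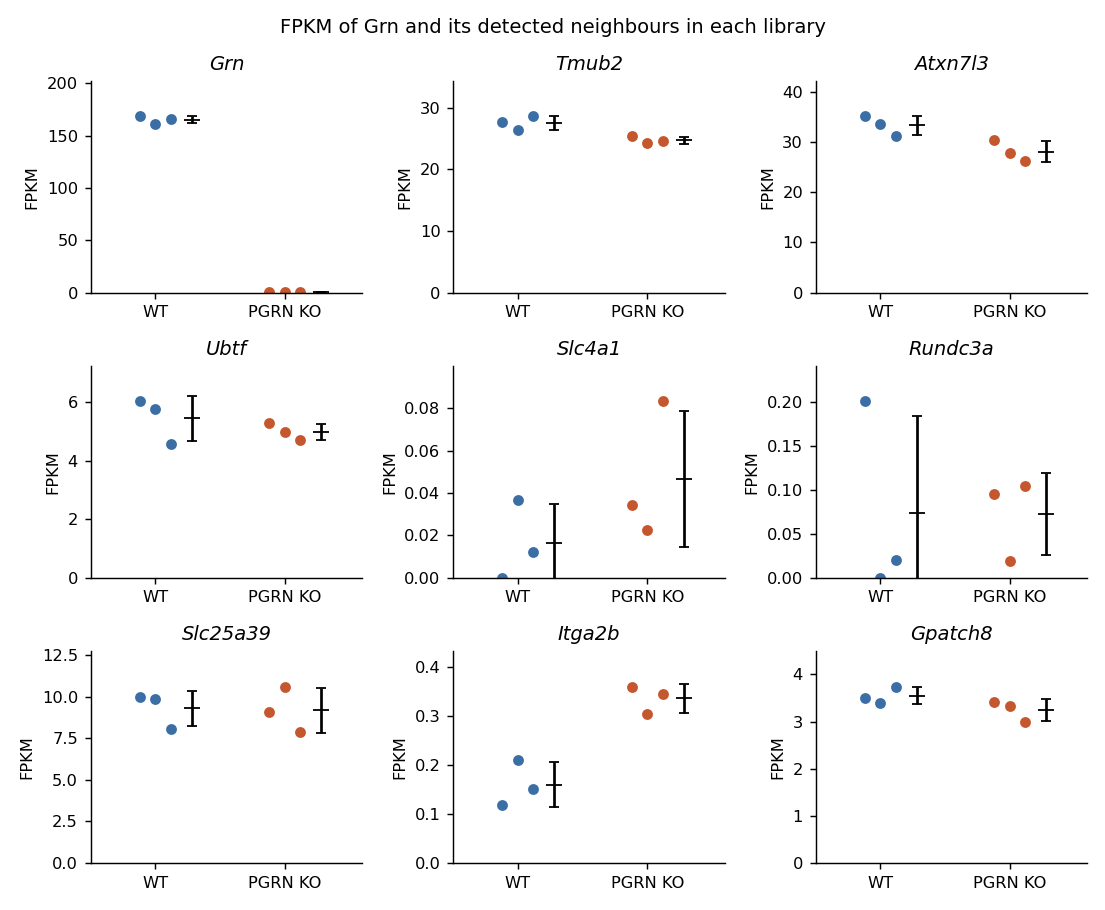
FPKM of Grn and of the 8 flanking genes with any fragment, 1 panel per gene with its own axis from 0; points are libraries and bars the mean ± SD of 3 WT (blue) or 3 PGRN KO (orange) libraries. The genotypes are apart for Grn, Tmub2, Atxn7l3 and Itga2b, and overlap for Ubtf, Slc4a1, Rundc3a, Slc25a39 and Gpatch8.

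Other genes of the complex that Atxn7l3 belongs to were measured in the same fit. Of 8 other genes for the deubiquitinase module, its paralogs included, 6 were tested, 2 rose and none fell (33.3%), with a median of -0.028. Over all genes tested 17.9% were called, higher or lower. The 2 that rose were Usp22, the ubiquitin protease of the module, from 12.1 ± 0.45 to 14.0 ± 0.30 FPKM (log2 difference 0.19, adjusted p = 0.0360, limma) and Eny2, a small subunit shared with mRNA export, from 178 to 329 fragments (0.34, adjusted p = 0.0406). Both calls were lost in each of the 6 fits that left out 1 library. Atxn7l3b, a paralog of Atxn7l3, was at 11.3 ± 0.48 and 11.03 ± 0.27 FPKM (-0.034, adjusted p = 0.706). Of the 17 genes for the core and acetyltransferase module, all tested, Sf3b5 and Sgf29 rose and none fell (11.8%, below the 17.9% over all genes), with a median of 0.068. The call on Sf3b5 was lost without PGRN KO replicate 5 or any of the WT replicates, and that on Sgf29 without WT replicate 2.

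Ubtf was at 6.03, 5.76 and 4.57 FPKM in the WT libraries and at 5.28, 4.98 and 4.70 in PGRN KO. WT replicate 3 was the lowest of all 6 libraries, so the genotypes overlapped. The log2 difference was -0.10 (95% interval -0.34 to 0.13, adjusted p = 0.526, limma), which spans a fall as large as that of Atxn7l3. Of 17 other genes of the RNA polymerase I machinery 15 were tested, none rose and 1 fell (6.67%), beside 17.9% called over all genes. The 1 that fell was Top1, DNA topoisomerase I, at 13.5 ± 0.43 FPKM in WT against 10.7 ± 0.33 in PGRN KO (-0.31, adjusted p = 0.00885, limma). The polymerase subunit genes Polr1a, Polr1c and Polr1d and the initiation factor gene Rrn3 were among the 14 that did not pass, and the list's median was 0.014.

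Gpatch8, the longest of the 10 genes, was at 3.51, 3.39 and 3.74 FPKM in the WT libraries and at 3.42, 3.33 and 2.98 in PGRN KO. PGRN KO replicate 4 lay among the WT values. Its log2 difference was -0.10 (95% interval -0.26 to 0.064, adjusted p = 0.375, limma). Both genotypes gave 1473 fragments in all, from libraries whose totals were also close.

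Slc25a39, the nearest tested gene on the side of the Grn promoter, was at 9.95, 9.85 and 8.07 FPKM in the WT libraries and at 9.07, 10.6 and 7.90 in PGRN KO. The highest and the lowest of the 6 libraries were both PGRN KO. The means were 9.29 ± 1.06 and 9.19 ± 1.36 (SD, n = 3 each), and the log2 difference was -0.018 (95% interval -0.30 to 0.26, adjusted p = 0.940, limma). Its sign turned to 0.091 with plain totals, so no direction can be given to it.

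Genes that work beside Slc25a39 in heme synthesis and glutathione supply, a list of 18 that were all tested, gave 2 higher and 3 lower. That is 27.8% of the list, beside 17.9% called over all genes. The 3 that fell make glutathione in the cytosol. Gclc, the catalytic subunit of its rate-limiting enzyme, went from 35.6 ± 1.46 to 21.3 ± 1.70 FPKM (log2 difference -0.71, adjusted p = 0.00122, limma), Gclm, the modifier subunit of the same enzyme, was at -0.46 (adjusted p = 0.00294), and Gss, the synthetase of the last step, was at -0.49 (adjusted p = 0.00445). Among those that rose was Slc25a38, a mitochondrial glycine carrier (0.28, adjusted p = 0.0471, lost in 8 of 16 alternatives). Slc25a40, the paralog of Slc25a39, had 160 fragments in WT and 297 in PGRN KO (0.25, adjusted p = 0.0614). Gsr, which returns oxidized glutathione to its reduced form, was at 382 ± 14.2 and 385 ± 5.09 FPKM (0.011, adjusted p = 0.883). Slc25a39 showed no detectable difference in cells where Gclc, Gclm and Gss were lower.

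With the deposited scaling, Itga2b was the only tested member with a higher mean in PGRN KO, at a level near the bottom of the genes tested. It was at 0.119, 0.209 and 0.1499 FPKM in WT, from 11, 19 and 14 fragments, and at 0.360, 0.303 and 0.345 in PGRN KO, from 35, 30 and 37. All PGRN KO libraries were above all WT libraries. The mean of 0.336 ± 0.029 in PGRN KO was 2.11 times the WT mean of 0.159 ± 0.046 (SD, n = 3 each). The ratio of fragments per total was 2.30, with an exact 95% interval of 1.599 to 3.35 that covers counting error only. On the log2(FPKM + 1) scale, which understates changes at such levels, the difference was 0.21 (95% interval 0.052 to 0.36) with an adjusted p of 0.0727 from limma.

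The call on Itga2b changed with the processing. With limma voom on the recovered fragments, a scale on which low genes are not compressed and 28.6% of genes were called, its log2 difference was 1.21 (SE 0.32, adjusted p = 0.00660), or 1.08 above the median of all genes. With plain totals its adjusted p was 0.0470 and with no filter on low values, where 8.89% of 22918 genes were called, it was 0.0465. It stayed above 0.05 in each of the 6 fits that left out 1 library, between 0.0858 and 0.163. The direction was the same in all 15 alternatives that gave a value.

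Because Itga2b is a gene of megakaryocytes, platelets, early progenitors and mast cells, the lists of those cells were read beside it. In bulk RNA, fewer cells of a type and less RNA per cell cannot be told apart. Of 22 other megakaryocyte and platelet genes 11 were tested, with 2 higher and 2 lower (36.4%), beside 17.9% called over all genes. Nrgn and Gp1bb were among the listed genes at 0 in all 6 libraries. Itgb3, the gene for the partner chain of Itga2b, was at 1.53, 1.68 and 1.34 FPKM in WT against 2.00, 2.28 and 1.98 in PGRN KO (log2 difference 0.30, adjusted p = 0.0464, limma), with no overlap, though the call was lost in each fit without 1 library. Pf4, platelet factor 4, had 11 and 37 fragments (0.57, adjusted p = 0.0147), a call lost without PGRN KO replicate 5 or WT replicate 2. Gp9, Gp5, Ppbp and Gp1ba, which define platelets, had between 2 and 11 fragments in a whole genotype and were not tested.

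The 2 that fell were Thbs1, the gene for thrombospondin 1, from 176 ± 11.8 to 71.9 ± 3.46 FPKM (-1.28, adjusted p = 0.000139, limma), and Tubb1, a beta tubulin of platelets, from 3.01 ± 0.17 to 1.52 ± 0.30 (-0.68, adjusted p = 0.00659). The summed level of the 22 genes, most of it Thbs1, was 189 to 212 FPKM in WT against 96.7 to 103 in PGRN KO. Without Thbs1 the sum of the other 21 was 24.4 to 26.6 FPKM in WT and 25.9 to 30.1 in PGRN KO, which overlap, and the median log2 difference of the 11 tested genes, Thbs1 included, was 0.048.

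Of 11 basophil and mast cell genes 7 were tested, and 5 rose and none fell (71.4%, median 0.43), beside 17.9% called over all genes. Fcer1a and Cpa3 reached the filter only through PGRN KO, with means of 0.059 and 0.013 FPKM in WT against 0.631 and 0.352. Fcer1a is among the 5, so the share and the median depend in part on the filter. The summed level of the 11 was 4.02 to 4.54 FPKM in WT against 13.7 to 15.1 in PGRN KO, with the mast cell proteases Cma1 and Tpsb2 at 0. Fcer1a, a chain of the high affinity IgE receptor, had 3 and 35 fragments, Mcpt8, a basophil protease, had 26 and 189, and Gata2, a transcription factor of progenitors, basophils and mast cells, had 6 and 48. The calls on Hpgds and Ms4a2 were lost in 6 and 5 of the 6 fits without 1 library, and those on Prss34, Mcpt8 and Fcer1a in none. Of 12 stem and progenitor genes 4 were tested, and 2 rose and none fell (50%), beside the same 17.9%. The 2 were Kit and Myb (0.37 and 0.40, adjusted p = 0.0282 and 0.00613, limma). The sum of the 12 was 12.6 to 14.1 FPKM in WT against 15.7 to 16.1 in PGRN KO, with Mecom among those at 0. The call on Kit was lost in 5 of those 6 fits and that on Myb in none. The stem and progenitor genes too low to test went both ways. Flt3 had 31 fragments in WT and 13 in PGRN KO, with no overlap, Meis1 had 6 and 2, and Spink2 had 2 and 1. Sox4 had 3 and 3, and Cd34, like Gata2 above, was higher in PGRN KO, with 13 and 33. Mpo and Elane, genes of the promyelocyte stage, also rose, by 2.31 and 2.09. The part of these cells in the Itga2b values was not tested.

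**Figure D3:**
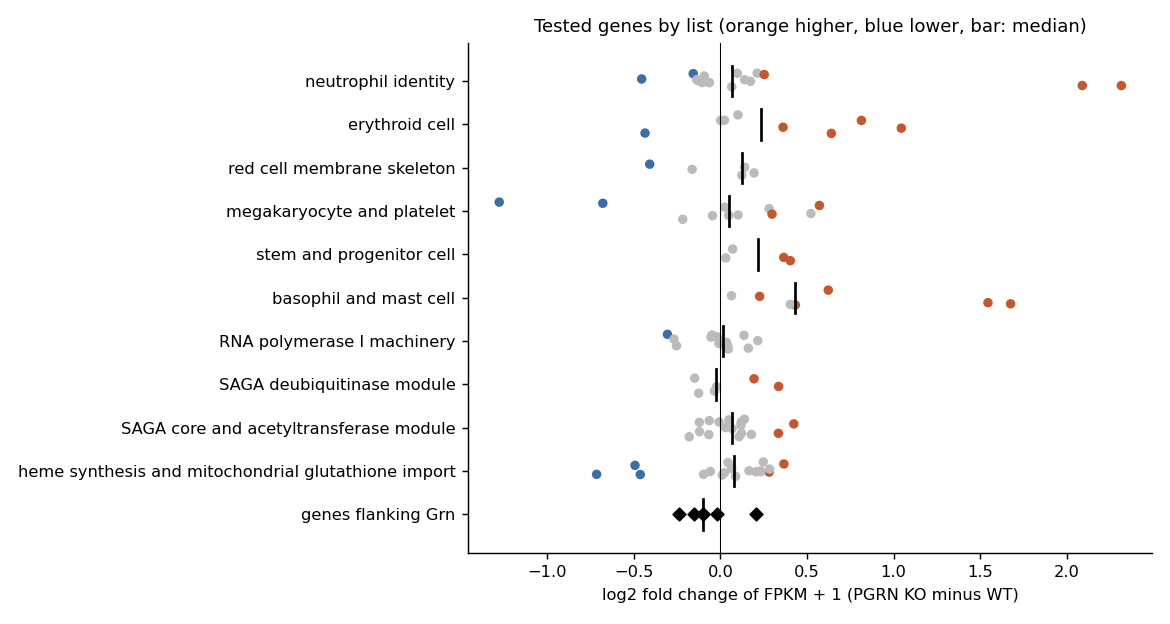
log2 difference in FPKM + 1 (PGRN KO minus WT) of each tested gene, by list on the vertical axis, with the 6 flanking genes as black diamonds in the bottom row; orange points passed an adjusted p of 0.05 as higher, blue as lower, and bars are medians. The flanking genes lie between -0.24 and 0.21, inside the range of the erythroid, platelet and glutathione lists.

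Slc4a1 and Rundc3a were detected but too low to test. Slc4a1 had 0, 3 and 1 fragments in WT and 3, 2 and 8 in PGRN KO. The genotypes overlapped at 3 fragments, and the ratio of fragments per total was 3.22 with an exact 95% interval of 0.996 to 13.6, so a difference was not detectable at this depth. Rundc3a had 10, 0 and 1 fragments in WT and 5, 1 and 6 in PGRN KO, a ratio of 1.08 (0.437 to 2.71). Its 10 fragments in WT replicate 1 were the most in any library.

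Slc4a1 is among the most abundant membrane proteins of red cells, so red cell genes were read beside it. Of 22 erythroid genes, 21 of them in the table, 8 were tested, with 4 higher and 1 lower (62.5%, median 0.23), beside 17.9% called over all genes. Hba-a1, an alpha globin gene, had 36 and 125 fragments (1.04, adjusted p = 0.0119, limma), and Hbb-bs, Hbb-bt and Car2 also rose, although globin genes have near copies that can share reads. These calls were lost in 2 (Hba-a1), 4 (Hbb-bs), 5 (Hbb-bt) and 6 (Car2) of the 6 fits without 1 library. Tfrc, the transferrin receptor gene, fell by 0.43 (adjusted p = 0.0104). The summed level was 99.7 to 110.4 FPKM in WT against 91.7 to 93.1 in PGRN KO, most of it Tfrc and Slc25a37, and Tspo2 was at 0. Klf1, a transcription factor of red cell precursors, had 1 and 7 fragments, and Alas2, the erythroid enzyme that starts heme synthesis, had 4 and 3.

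Of 16 genes for partners of band 3 in the red cell membrane 5 were tested, and none rose and 1 fell (20%), beside 17.9% called over all genes. The 1 that fell was Slc2a1, the glucose transporter GLUT1 that many cells use (-0.41, adjusted p = 0.00306, limma). Sptb, a spectrin gene, had 9 fragments in WT and 29 in PGRN KO, and Ank1, the ankyrin that anchors band 3, had 9 and 19. The summed level of the 16 was 315 to 327 FPKM in WT against 239 to 262 in PGRN KO, nearly all Slc2a1. The part of red cell precursors in the Slc4a1 fragments was not tested.

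Fam171a2 and Asb16 were at 0 fragments in all 6 libraries. A floor of 3 fragments in a library allows up to 0.0489 to 0.0577 FPKM for Fam171a2 and 0.0537 to 0.0633 for Asb16. Fam171a2 overlaps the end of Grn on the opposite strand, and it was at 0 although Grn gave 9345 to 9936 fragments in each WT library. Whether the counting used strand is not stated, and the library kit as named does not mark it.

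By WT level the order was Atxn7l3, Tmub2, Slc25a39, Ubtf, Gpatch8, Itga2b, Rundc3a and Slc4a1, followed by the pair at 0. Neighbours in this order down to Gpatch8 and Itga2b did not overlap between genes in either genotype. Itga2b and Rundc3a overlapped in WT, and Rundc3a and Slc4a1 overlapped in both. Atxn7l3 stood at percentile 90.6 of the WT levels of tested genes, Tmub2 at 89.0, Slc25a39 at 75.5, Ubtf at 67.3, Gpatch8 at 59.4 and Itga2b at 8.46. Grn, at 165 ± 3.63 FPKM, was higher in WT than any of its neighbours.

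**Figure D4:**
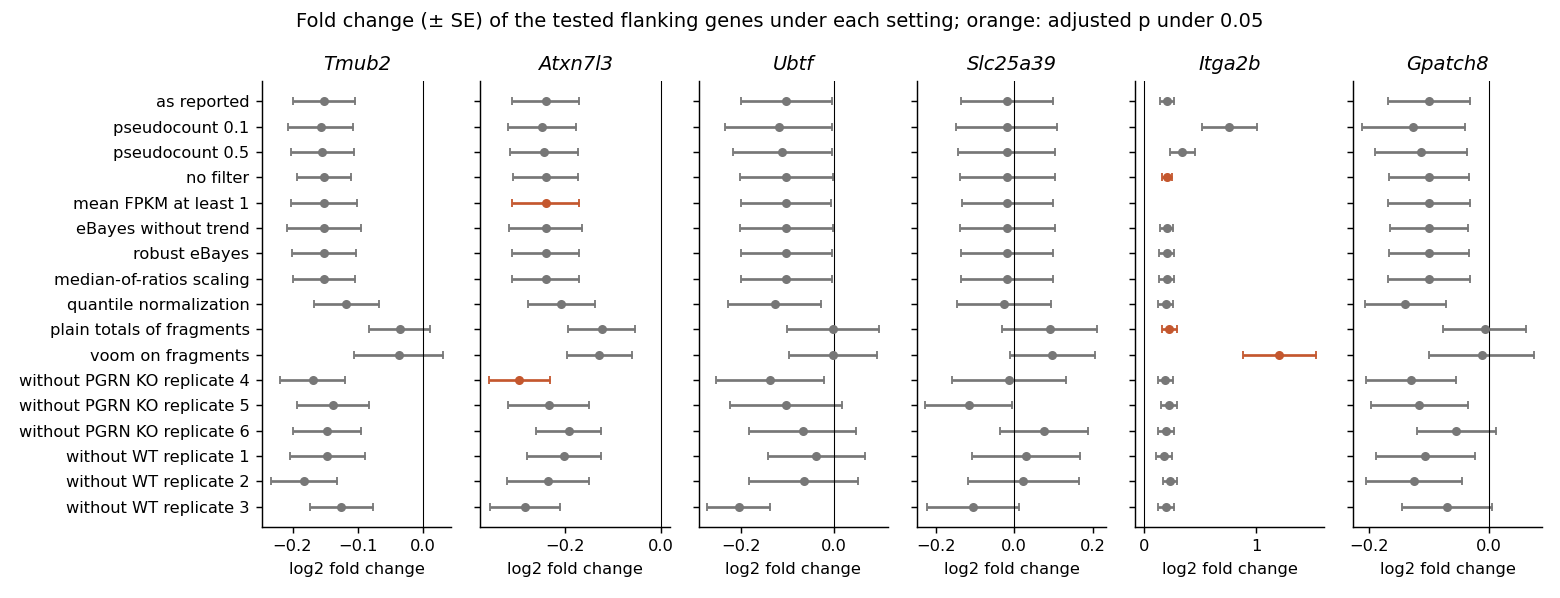
log2 difference (PGRN KO minus WT) with its SE for the 6 tested flanking genes, 1 panel per gene with its own axis, under each way of processing; orange marks an adjusted p under 0.05, and voom is on a scale of fragments per total rather than of FPKM + 1. Tmub2, Ubtf, Slc25a39 and Gpatch8 have no orange point, Atxn7l3 has 2 and Itga2b has 3.

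The flanking genes were then set in the wider chromosome. The table lists 21 genes within 0.2 Mb of Grn besides Grn itself, of which 10 were at 0 in all libraries and 8 were tested. The 2 tested genes that are not members were BC030867 and Gm11628, a processed pseudogene inside Gpatch8 with 1 fragment in each genotype. BC030867 (ENSMUSG00000034773, chr11:102248882-102265187, plus strand) lies 165 kb from Grn, just beyond Asb16. It was at 3.15, 2.89 and 2.83 FPKM in the WT libraries and at 3.57, 3.78 and 3.67 in PGRN KO, with no overlap. The log2 difference of 0.24 (SE 0.061) had an adjusted p of 0.0386 from limma, and the call was lost in each of the 6 fits without 1 library, where the adjusted p was 0.0564 to 0.124. Hdac5, a histone deacetylase gene just outside the window, was at -0.13 (adjusted p = 0.221).

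The share of tested genes called was then taken by distance from Grn, members included. It was 12.5% (1 of 8) within 0.2 Mb, 22.9% (8 of 35) from 0.2 to 1 Mb, 22.0% (9 of 41) from 1 to 2 Mb, 18.3% (17 of 93) from 2 to 5 Mb, 16.9% (12 of 71) from 5 to 10 Mb, 22.8% (65 of 285) from 10 to 20 Mb and 18.7% (124 of 664) beyond 20 Mb. All of chromosome 11 without Grn gave 19.7% of 1197 genes, with 76 higher and 160 lower, and the other chromosomes gave 17.7% of 13609, with 1099 higher and 1312 lower. The median log2 difference was -0.021 on chromosome 11 without Grn and 0.0047 elsewhere. From 0.2 to 1 Mb 2 genes were higher and 6 lower, and from 5 to 10 Mb none were higher and 12 lower. These are counts with no test, and neighbouring genes are not independent.

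**Figure D5:**
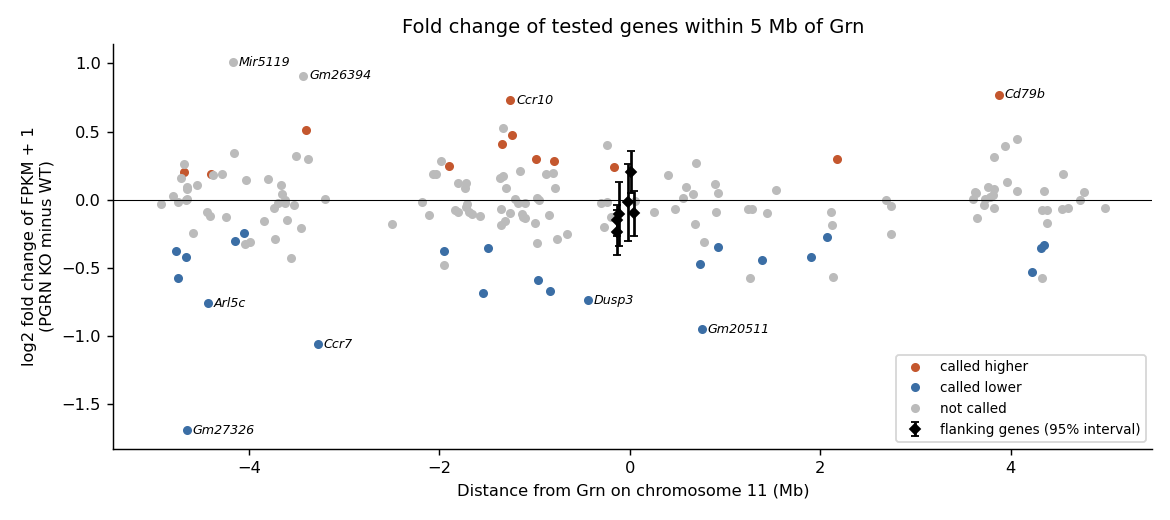
log2 difference in FPKM + 1 (PGRN KO minus WT) of the tested genes within 5 Mb of Grn, without Grn itself, against distance from Grn in Mb, negative before Grn. Orange and blue points passed an adjusted p of 0.05 as higher or lower, grey did not, and black diamonds with 95% intervals are the 6 flanking genes, all between -0.24 and 0.21 while Ccr7 stands at -1.06 and Ccr10 at 0.73.

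Going outward from the flanking genes, the nearest called gene before them was BC030867 and the next distance bin began with Dusp3, which encodes a phosphatase of MAP kinases. Dusp3, 443 kb from Grn, was at 7.98, 7.08 and 6.90 FPKM in the WT libraries and at 4.01, 4.09 and 3.86 in PGRN KO, a log2 difference of -0.74 (adjusted p = 0.00118, limma). After Grn, the nearest called gene was Fmnl1, a formin of blood cells 734 kb away, which went from 112 ± 4.83 to 80.9 ± 8.29 FPKM (-0.47, adjusted p = 0.01001). The antisense gene Gm20511, at -0.95, lies within Fmnl1, and without strand their reads cannot be told apart. Both Dusp3 and Fmnl1 kept their calls in all 16 alternatives.

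Farther out before Grn, the nearest called genes in each bin were Cntnap1 at 1240 kb (0.48, adjusted p = 0.0108, limma), Ccr7 at 3275 kb and B4galnt2 at 6515 kb (-0.49, adjusted p = 0.0324). After Grn they were Nsf, the vesicle fusion ATPase, at 1385 kb (-0.44, adjusted p = 0.00231), Cdc27, a subunit of the anaphase-promoting complex, at 2066 kb (-0.27, adjusted p = 0.0272) and Gna13, a G protein alpha subunit, at 6926 kb (-0.44, adjusted p = 0.00163). Ccr7, the chemokine receptor that guides leukocytes to lymph nodes, went from 25.1 ± 1.19 to 11.6 ± 1.66 FPKM (-1.06, adjusted p = 0.00136). The other large falls within 5 Mb were Gm27326 (-1.69, from 23 fragments to 4, inside Rpl23 on the same strand, so its reads are uncertain) and Arl5c (-0.76). The largest rises among called genes within 5 Mb were Cd79b, a B cell receptor chain, from 20 to 95 fragments (0.77), Ccr10, a chemokine receptor (0.73), Top2a, the topoisomerase of dividing cells, from 18.9 ± 0.77 to 27.4 ± 1.06 FPKM (0.51), Cntnap1 and Coasy (0.41). Ccr10 and Cntnap1 overlap by 2447 bases on opposite strands. How fragments in the overlap were assigned is not stated, so their rises may not be separate. The calls of B4galnt2, Cdc27 and Coasy were lost in 4, 5 and 5 of the 6 fits without 1 library.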

How the data were processed

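RNA from 6 neutrophil libraries was sequenced as 3 WT and 3 PGRN KO samples, grouped by the genotype in their labels, and none was left out. The authors deposited FPKM values per gene, made with a library size that carries their scaling between libraries, and a gene length in bases for each gene. The submitters' processing notes name CASAVA, HISAT2 2.0.5, featureCounts 1.5.0-p3 and DESeq2 1.20.0 on mm10 or GRCm38, while the study's methods name HISAT and HTSeq, so which counter made the values is not settled. Of 54409 gene identifiers shared with GENCODE M21 on GRCm38, 53462 had the same position, as did the 10 members and Grn.

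Genotypes were compared with limma 3.58.1 (lmFit, eBayes with trend) in R 4.3.3 on log2(FPKM + 1), over genes whose mean FPKM reached 0.1, with two-sided tests, p-values adjusted by Benjamini-Hochberg over all 14807 genes and a threshold of 0.05. A change on this scale understates that of low genes. The deposited values are FPKM, and the count test of the study was not run on the fragments recovered from them. Voom was run on those fragments as an alternative. Fragments were recovered as FPKM times length and library size. Intervals of fragment ratios (exact, 95%) and the floor of 3 fragments cover counting error only. The fit was tested on simulated data. Tables were made in Python 3.11.15 (pandas 2.3.3, numpy 2.4.6, scipy 1.17.1).

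The members and the gene lists were chosen with earlier results of these data known. Lists were described by counts and medians, with no set test. Some members of the lists are counted but not reported here by name. The genes named are Grn, the 10 members, the other tested genes within 0.2 Mb, the nearest called gene on each side in each distance bin up to 10 Mb, the 5 called genes with the largest rise and the 5 with the largest fall within 5 Mb, and members of the lists. Genes most like a member were to be named only for members called, of which there were none. Hdac5, just outside the window, was named after its values were seen. The alternatives were pseudocounts of 0.1 and 0.5, no filter, a mean FPKM of at least 1, eBayes without trend and robust eBayes, median-of-ratios, quantile and plain-total scaling, voom on fragments, and each library left out.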

Additional observations from a re-analysis of the deposited data

How the results depend on the processing

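No paired analysis was possible because the labels number the libraries 1 to 6 with no number shared between genotypes. The number of members called was 0 as reported and 1 with no filter, a mean FPKM of at least 1, plain totals or voom, and 0 to 1 with each library left out. Called genes within 0.2 Mb were 1 as reported, 2 with a mean FPKM of at least 1, plain totals or voom, 0 with quantile normalization and 0 to 1 without 1 library. Voom called 16 genes within 1 Mb (9 as reported), 55 within 5 Mb (35) and 4236 in all (2648), and fits without 1 library called 6 to 8 within 1 Mb, 22 to 32 within 5 Mb and 1322 to 2161 in all, with 1322 without PGRN KO replicate 5 and 1612, 1335 and 1662 without WT replicates 1, 2 and 3, each from fewer samples. Grn was called in all 16 alternatives.

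The share of higher calls was 44.4% as reported, 69.7% with plain totals and 70.4% with voom, whose medians over all genes were 0.067 and 0.12. Median-of-ratios scaling changed next to nothing, since its factors were the same for all 6 libraries. The sign of Slc25a39 turned to 0.091 with plain totals and 0.097 with voom, with a range of -0.12 to 0.076 without 1 library. The sign of Gm11628 turned to 0.0033 with plain totals, with a range of -0.14 to 0.14 without 1 library. The causes were not tested. Depth limits Slc4a1, Rundc3a, Fam171a2, Asb16 and Gm11628, none of which had more than 13 fragments in a genotype.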
